A study of Homo sapiens with 4 samples.

Results

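A set of 50 genes that build, load or receive the autophagosome was followed in a myeloma line and its carfilzomib-resistant derivative, and 49 of them were found among the 15201 genes of the deposited table. They were taken by name, by matching the Ensembl IDs of the table to gene symbols. ATG16L1 is not analysed here. By role, 15 act in initiation, 10 in conjugation, 5 as cargo receptors, 2 in the aggresome and 17 at the lysosome. The cells were ARP-1, a human multiple myeloma line. One group was wild-type cells (WT, 2 libraries) and the other was cells with carfilzomib resistance (CfzR, 2 libraries). Carfilzomib is an inhibitor of the proteasome. The labels give no dose, length of selection, clone or drug exposure at harvest, and they do not say whether the replicates were separate cultures. The comparison asks how the RNA levels of resistant cells differ from those of WT cells.

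Autophagy encloses cytoplasm in a double membrane that fuses with the lysosome, where the contents are degraded. The ULK kinase complex and the class III PI3-kinase complex start the membrane, a ubiquitin-like conjugation system attaches ATG8 proteins (LC3 and GABARAP) to it, and receptors such as p62 tie ubiquitinated cargo to those proteins. The lysosome is acidified by the V-ATPase, and its genes are controlled by TFEB and TFE3. When the proteasome is blocked, misfolded proteins can be carried along microtubules to the aggresome, a deposit caged by vimentin and cleared by autophagy. Plasma cells, which secrete large amounts of antibody, depend on these routes beside the proteasome.

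Values are FPKM, a unit that divides fragments by transcript length and by library size, so levels can be set side by side between genes. The FPKM hold no counts, and sequencing depth is unknown. All 8 plasma cell markers checked were present, from CD38 at 12 to 21.0 FPKM to the immunoglobulin J chain JCHAIN at 3493 to 4601 FPKM across the 4 libraries. None of the 13 markers of B cells, T cells, monocytes, red cells and stroma was in the table, and of 2 epithelial markers KRT18 was, at 0.424 to 2.02 FPKM. In bulk RNA, fewer cells of a type and less RNA per cell cannot be told apart. CfzR replicate 1 stood apart from the rest: its Pearson correlations with the other 3 libraries were 0.947 to 0.968 across 13411 genes, against 0.973 to 0.983 among those 3. Its FPKM summed to 673265, against 877849 in CfzR replicate 2 and 918617 and 955284 in WT replicates 1 and 2. The median gene was at 7.50 to 7.75 FPKM in every library. The main fit did not rescale the libraries. Values of the genes the results turn on are therefore given for each resistant library. The estimate without replicate 1 is added for many of those where it moved.

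No gene of the set passed the threshold in either direction. Groups were compared with limma on log2(FPKM + 1), which understates changes of low genes, and the Benjamini-Hochberg adjusted p had to be under 0.05 over the 13411 genes whose mean reached 1 FPKM. All 49 genes met that filter, with ATG14 the closest to it at a mean of 1.07 FPKM. Among all genes tested 0.246% were called higher in CfzR and 0.104% lower, so a count of 0 of 49 is near the background. The smallest adjusted p among the 49 was 0.306. At an unadjusted limma p under 0.05 there were 4 higher genes (STX17, ATG13, WIPI1 and ATP6V1A) and 0 lower ones, beside 5.32% and 5.81% of all genes tested. Both CfzR libraries lay above both WT libraries for 11 genes and below them for 10, which is 22.4% and 20.4% of the set against 22.1% and 22.6% of all genes tested. These shares are close to the background.

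The estimated changes were small. The log2 fold change (CfzR minus WT) ran from -0.63 for MCOLN1 to 0.95 for STX17, with a median of -0.01 against -0.02 over all genes tested. The median of the absolute log2 fold change was 0.15 in the set and 0.24 over all genes. The set also stood at a higher level, with a median of 28.5 FPKM against 10.4 FPKM over all genes tested. Genes were not matched for level in this comparison or in those that follow. For 45 of 49 genes (91.8%) it was under 0.5, as it was for 81.2% of all genes, and 0 of 49 exceeded 1, against 3.18%. The median standard error was 0.21 in the set and 0.24 over all genes tested. In simulated data with the same groups the test found 4% of the genes changed by 1 on the log2 scale and 78% of those changed by 2. The changed genes were drawn from those with a mean log2(FPKM + 1) above 2, so low genes such as ATG14 were not covered. The simulated noise was independent between genes and held no trend with transcript length or GC. The test therefore does not show that the levels were equal.

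**Figure D1:**
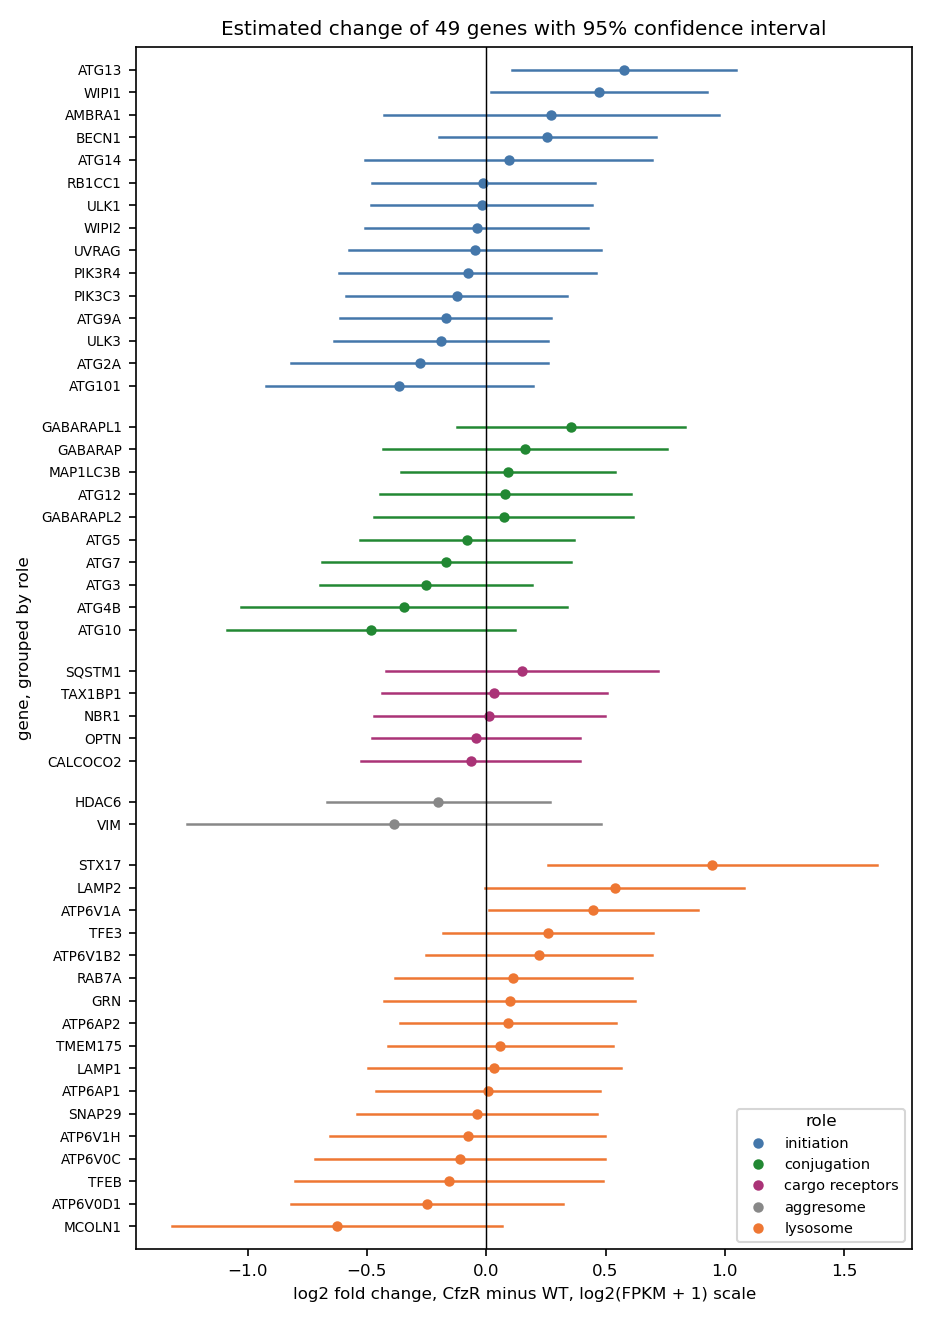
Log2 fold change (CfzR minus WT, on the log2(FPKM + 1) scale) of the 49 genes by limma, with 95% confidence intervals as bars and colours for the 5 roles. Estimates lie between -0.63 (MCOLN1) and 0.95 (STX17), and only ATG13, WIPI1, STX17 and ATP6V1A have intervals that leave out 0 before adjustment for the number of genes tested.

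Initiation genes ranged in level from 1.07 FPKM for ATG14, with 13.0% of the genes in the table at or below it, to 68.1 FPKM for WIPI2. Of the 15 genes, 5 had positive and 10 negative estimates, and their median was -0.04. The groups did not overlap for 7 of them (46.7%, against 44.7% of all genes tested), 3 higher and 4 lower in CfzR.

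ATG13, the adaptor that links the ULK kinases to the rest of their complex, lies at chr11:46617527-46674818, plus strand (GRCh38, GENCODE release 29, as for the gene positions below, which were matched by gene ID). It measured 53.6 and 46.6 FPKM in the WT libraries and 77.1 and 72.9 FPKM in the CfzR libraries. Both resistant libraries lay above both WT libraries and the gap within each group was smaller than the gap between them. The mean was 1.5-fold higher in CfzR, 75.0 ± 2.96 against 50.1 ± 4.98 FPKM (mean ± SD, n = 2 here and below). By limma the log2 fold change was 0.58 (SE 0.20, 95% confidence interval 0.11 to 1.05, adjusted p = 0.356), and 0.54 without CfzR replicate 1. The other parts of the complex did not share this difference in size. ULK1, the kinase that starts autophagy on nutrient or energy stress, had 19.3 and 16.0 FPKM in the WT pair against 16.9 and 17.8 FPKM in the CfzR pair, and the groups overlapped. The scaffold RB1CC1 (FIP200) overlapped as well, with a log2 fold change of -0.01. ATG101, which stabilises ATG13, was read at 59.0 and 67.9 FPKM in WT replicates 1 and 2 and at 41.0 and 58.4 FPKM in CfzR replicates 1 and 2. Its CfzR libraries lay below WT, closely so for replicate 2, and the log2 fold change was -0.36 (-0.11 without CfzR replicate 1, SE 0.24, limma adjusted p = 0.579). ULK3, a related kinase, lay slightly lower in CfzR (log2 fold change -0.19, adjusted p = 0.709).

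The PI3-kinase complex, which marks the site of the new membrane with a phospholipid, had log2 fold changes from -0.12 to 0.27 over its 6 genes. BECN1 (Beclin 1), its regulatory subunit, measured 36.2 and 40.9 FPKM in the WT libraries and 47.9 and 44.5 FPKM in the CfzR libraries, without overlap (log2 fold change 0.26, adjusted p = 0.627). The lipid kinase PIK3C3 (VPS34) and its partner PIK3R4 (VPS15) had log2 fold changes of -0.12 and -0.08, the latter 0.17 without CfzR replicate 1. ATG14 and UVRAG, the subunits that direct the complex to early and later steps, differed in level, at 1.07 and 13.95 FPKM over the 4 libraries. Neither differed between groups beyond the spread. AMBRA1, which binds Beclin 1, had 9.37 and 8.51 FPKM in the WT pair against 15.1 and 7.93 FPKM in the CfzR pair. CfzR replicate 1 was the highest of its 4 libraries and CfzR replicate 2 the lowest, and the log2 fold change of 0.27 turned to -0.15 without CfzR replicate 1.

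WIPI1 and WIPI2 read that phospholipid and recruit the conjugation machinery. WIPI1 (chr17:68420948-68457513, minus strand) was read at 11.2 and 9.90 FPKM in WT replicates 1 and 2 and at 14.5 and 15.5 FPKM in CfzR replicates 1 and 2, again without overlap and with narrow gaps within groups. Its mean was 1.42-fold higher in CfzR (log2 fold change 0.47, SE 0.19, 95% confidence interval 0.02 to 0.93, limma adjusted p = 0.428; 0.52 without CfzR replicate 1). WIPI2, at 73.3 and 64.8 FPKM in WT and 67.4 and 66.6 FPKM in CfzR, overlapped. The lipid transfer protein ATG2A and the scramblase ATG9A, which supply membrane, both lay lower in CfzR without overlap, by -0.28 and -0.17 on the log2 scale (limma adjusted p of 0.655 and of 0.731). CfzR replicate 2 was level with WT for ATG2A, at 18.92 against 18.93 FPKM in WT replicate 2, and without CfzR replicate 1 the estimate was -0.03.

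**Figure D2:**
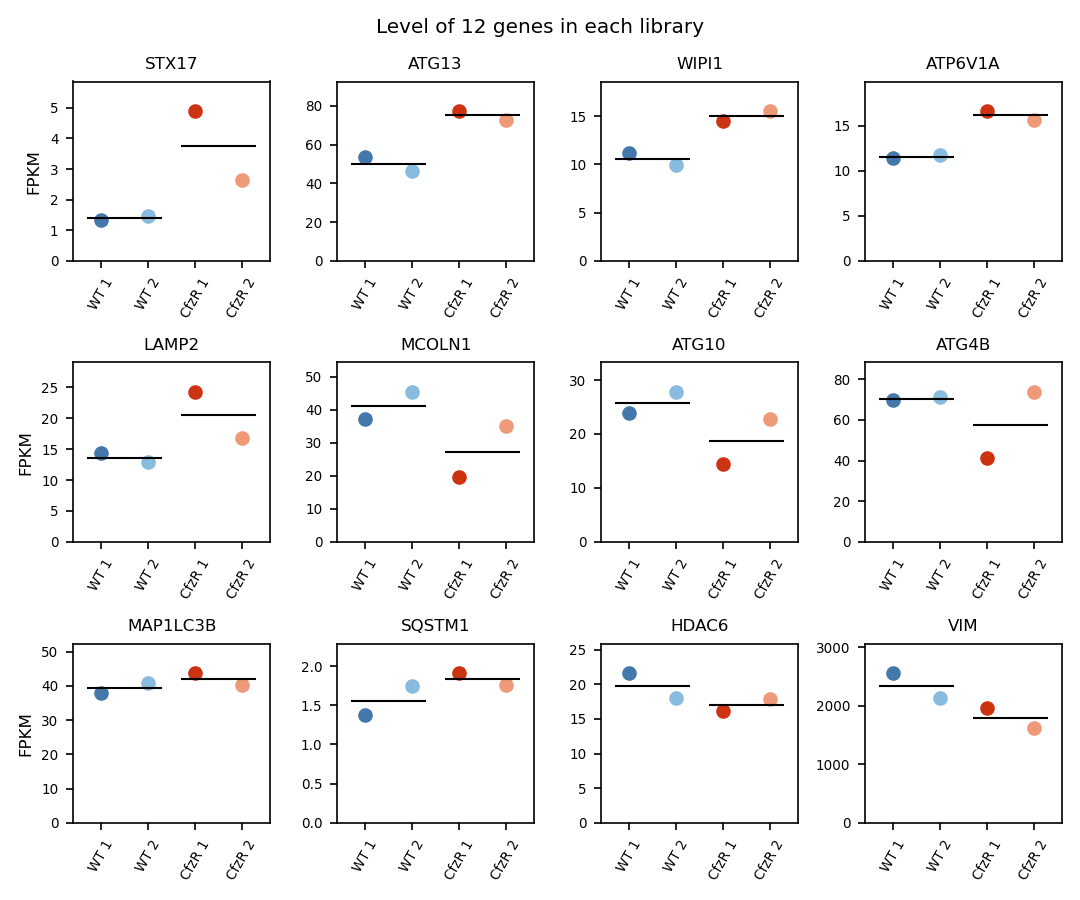
FPKM of 12 genes in each of the 4 libraries, 1 panel per gene with its own axis from 0, with points for libraries and lines for group means. The CfzR points of ATG13, WIPI1 and ATP6V1A sit close together above WT, those of STX17, LAMP2, MCOLN1, ATG10 and ATG4B lie far apart, and SQSTM1 stays under 2 FPKM throughout.

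Conjugation genes split into enzymes and the ATG8 proteins they attach. Of the 6 enzyme genes, 5 had negative log2 fold changes (median -0.21). The groups did not overlap for 2, ATG3 and ATG10 (33.3%, against 44.7% of all genes tested), both lower in CfzR. ATG3, the E2-like enzyme that transfers LC3 to lipid, measured 50.7 and 53.5 FPKM in the WT libraries and 43.3 and 43.7 FPKM in the CfzR libraries (log2 fold change -0.25, SE 0.19, limma adjusted p = 0.623). Its groups were apart, and the ratio of means was 0.836. ATG10, the E2-like enzyme of the ATG12 branch, had 24.0 and 27.7 FPKM in the WT pair against 14.4 and 22.9 FPKM in the CfzR pair. The lower mean (0.720 of WT) rests mainly on CfzR replicate 1 (log2 fold change -0.48, SE 0.25, adjusted p = 0.519; -0.17 without that library). ATG4B, the protease that primes and recycles LC3, stood at 69.5 and 71.2 FPKM in WT, at 41.4 FPKM in CfzR replicate 1 and at 73.5 FPKM in CfzR replicate 2, its highest library. Its log2 fold change of -0.35 (adjusted p = 0.660) turned to 0.06 without CfzR replicate 1. ATG7, the E1-like enzyme of both branches, and the conjugated pair ATG5 and ATG12 had log2 fold changes of -0.17, -0.08 and 0.08, with overlap in each.

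All 4 ATG8 genes had positive estimates, the largest being that of GABARAPL1. The sign for GABARAP carries a doubt, as its exons overlap those of ENSG00000262526 on the same strand. That gene, picked after its values were seen, had 158 and 187 FPKM in WT and 100.4 and 107.9 FPKM in CfzR (log2 fold change -0.72). How reads were split between it and GABARAP was not tested. GABARAPL1 was read at 12.03 and 13.6 FPKM in WT replicates 1 and 2 and at 18.3 and 15.1 FPKM in CfzR replicates 1 and 2, with the CfzR libraries above (log2 fold change 0.35, SE 0.20, 95% confidence interval -0.12 to 0.83, limma adjusted p = 0.542; 0.22 without CfzR replicate 1). MAP1LC3B, the LC3 form most used as an autophagosome marker, measured 37.8 and 40.8 FPKM in the WT libraries and 43.7 and 40.3 FPKM in the CfzR libraries. These groups overlapped and the log2 fold change was 0.09. GABARAP had 167 and 131 FPKM in the WT pair against 145 and 190 FPKM in the CfzR pair, and GABARAPL2 had 116 and 143 FPKM against 125 and 147 FPKM. In both genes the spread within each group was larger than the difference between groups. GABARAP and GABARAPL2 had log2 fold changes of 0.16 and 0.07. Their signs turned when CfzR replicate 2 was left out (-0.03 and -0.04). Without CfzR replicate 1 the values were 0.35 and 0.19.

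By level the family was led by GABARAP and GABARAPL2. GABARAP made up 50.2% and 40.0% of the summed FPKM of the 4 genes in WT and 43.8% and 48.3% in CfzR. GABARAPL2 held 34.8% and 43.5% in WT and 37.6% in each CfzR library. MAP1LC3B held 11.3% and 12.4% in WT and 13.1% and 10.3% in CfzR, and GABARAPL1 between 3.61% and 5.51%. The order of the last pair was the same in every library, whereas GABARAP and GABARAPL2 changed places in WT replicate 2. The summed level was 331 ± 3.04 FPKM in WT and 362 ± 42.6 FPKM in CfzR. Both the shares and the sums take GABARAP as listed, with the same doubt on its split from ENSG00000262526.

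**Figure D3:**
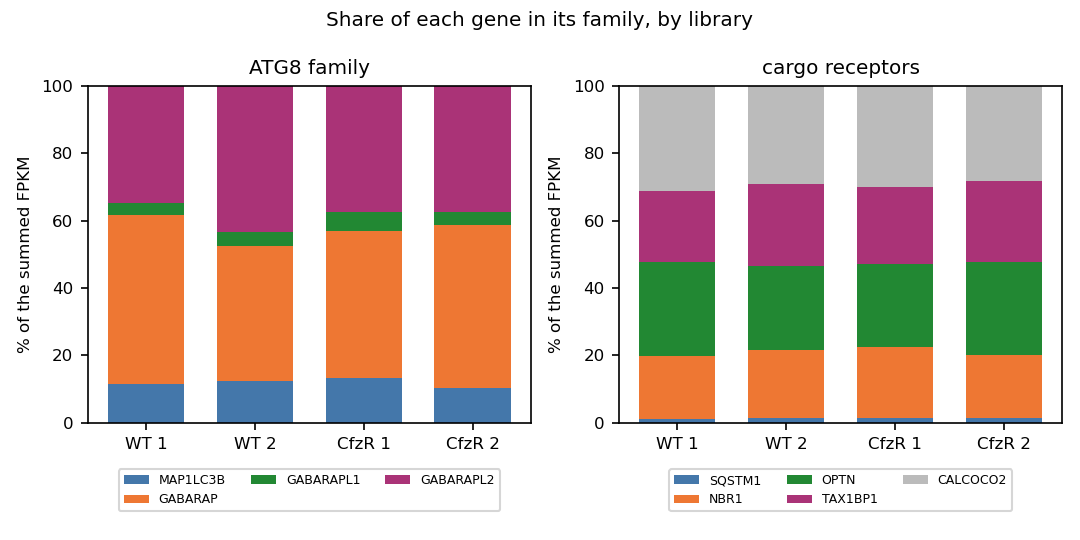
Share of each gene in the summed FPKM of its family, in percent, with 1 stacked bar per library, for the 4 ATG8 genes (left) and the 5 cargo receptors (right). GABARAP holds 40.0% to 50.2% of the ATG8 sum and SQSTM1 1.14% to 1.5% of the receptor sum. The share of SQSTM1 is the only one of the 9 that does not overlap between WT and CfzR. Exons of GABARAP overlap those of ENSG00000262526 on the same strand, and the split of reads between them was not tested.

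Cargo receptors had small estimates. Their 5 log2 fold changes lay between -0.07 and 0.15 with a median of 0.01. SQSTM1 (p62), which binds ubiquitin and LC3 and gathers cargo into bodies, was read at 1.38 and 1.74 FPKM in WT replicates 1 and 2 and at 1.91 and 1.75 FPKM in CfzR replicates 1 and 2. CfzR replicate 2 exceeded WT replicate 2 by less than the gap between the WT libraries, so the separation is within the spread (log2 fold change 0.15, SE 0.24, limma adjusted p = 0.816). This receptor, whose gene lies at chr5:179806398-179838078, plus strand, was the lowest of the 5. At a mean of 1.69 FPKM, 20.8% of the genes in the table stood at or below it, and it made up 1.14% to 1.5% of the receptors' summed FPKM. This is a low level for a gene that plasma cells commonly express well, and the gene models and strand setting behind it are not known, so it is given only as the table lists it. Exons of SQSTM1 overlap those of MGAT4B and MRNIP on the other strand in GENCODE release 29, neither of which is analysed here.

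The other 4 receptors stood at similar levels to each other. CALCOCO2 (NDP52) averaged 36.7 FPKM, OPTN (optineurin) 32.5 FPKM, TAX1BP1 28.5 FPKM and NBR1 24.3 FPKM over the 4 libraries. OPTN measured 33.8 and 32.3 FPKM in the WT libraries and 31.9 and 32.1 FPKM in the CfzR libraries, lower without overlap by a log2 fold change of -0.04. CALCOCO2 had 37.7 and 37.3 FPKM in the WT pair against 38.9 and 32.9 FPKM in the CfzR pair, with overlap. The signs of OPTN and CALCOCO2 turned under quantile normalization (0.05 and 0.04). For NBR1 and TAX1BP1 the log2 fold changes were 0.01 and 0.03.

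The 2 aggresome genes both lay lower in CfzR without overlap, as did 22.6% of all genes tested, and neither passed. HDAC6, the deacetylase that links ubiquitinated proteins to dynein motors, was read at 21.6 and 18.0 FPKM in WT replicates 1 and 2 and at 16.2 and 17.9 FPKM in CfzR replicates 1 and 2. WT replicate 2 and CfzR replicate 2 were nearly level. The log2 fold change was -0.20 (SE 0.20, limma adjusted p = 0.706), and -0.13 without CfzR replicate 1. VIM encodes vimentin, the intermediate filament of the aggresome cage (chr10:17228259-17237593, plus strand). It was the most abundant gene of the set, at or above 99.5% of all genes in the table, with 2552 and 2130 FPKM in WT and 1969 and 1613 FPKM in CfzR. The CfzR libraries lay below, with a mean of 1791 ± 252 FPKM against 2341 ± 298 FPKM. Its log2 fold change was -0.39, and the interval was wide (SE 0.37, 95% confidence interval -1.25 to 0.48, adjusted p = 0.692). It shrank to -0.07 under quantile normalization and to -0.24 without CfzR replicate 2, and was -0.53 without CfzR replicate 1.

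Lysosome genes covered the widest range of estimates, from -0.63 to 0.95. Of the 17 genes, 11 had positive log2 fold changes with a median of 0.06, and the groups did not overlap for 7, with 6 higher (35.3%, against 22.1% of all genes tested) and 1 lower (5.88%, against 22.6%). Among the fusion genes, STX17 (chr9:99906633-99970341, plus strand), the SNARE that moves to closed autophagosomes, measured 1.33 and 1.46 FPKM in the WT libraries and 4.88 and 2.63 FPKM in the CfzR libraries. Both CfzR libraries lay above WT but they differed from each other more than replicate 2 differed from WT. The mean was 2.69-fold higher, 3.76 ± 1.60 against 1.40 ± 0.0882 FPKM. By limma the log2 fold change was 0.95 (SE 0.29, 95% confidence interval 0.26 to 1.64, adjusted p = 0.306), and without CfzR replicate 1 it was 0.60. As a low gene it moved with the pseudocount, from 1.302 at 0.1 to 0.44 at 5, where ATG13 (0.54) exceeded it. STX17 was among the lowest genes of the set, with 28.3% of all genes at or below its mean. Its partner SNAP29 and RAB7A, the GTPase of late endosomes, had log2 fold changes of -0.04 and 0.11 with overlapping groups.

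Of the membrane proteins, LAMP2 (chrX:120427827-120469365, minus strand), needed for fusion and for chaperone-mediated autophagy, had 14.4 and 12.9 FPKM in the WT pair against 24.2 and 16.9 FPKM in the CfzR pair. CfzR lay above WT in both libraries, with a mean 1.51-fold higher (log2 fold change 0.54, SE 0.23, 95% confidence interval -0.003 to 1.08, limma adjusted p = 0.450; 0.29 without CfzR replicate 1). LAMP1, its more abundant relative, was read at 132 and 130 FPKM in WT replicates 1 and 2 and at 151 and 120 FPKM in CfzR replicates 1 and 2. Here CfzR replicate 1 was the highest library and CfzR replicate 2 the lowest, and the log2 fold change was 0.03 (-0.13 without CfzR replicate 1). MCOLN1 (chr19:7522626-7534009, plus strand), the calcium channel through which lysosomes signal to TFEB, had the most negative estimate of the set. It measured 37.2 and 45.3 FPKM in the WT libraries and 19.6 and 35.0 FPKM in the CfzR libraries. The CfzR libraries lay below WT, replicate 2 only a little (log2 fold change -0.63, SE 0.29, 95% confidence interval -1.32 to 0.07, adjusted p = 0.485; -0.22 without CfzR replicate 1). TMEM175, a proton-permeable channel, had a log2 fold change of 0.06, and GRN, the lysosomal progranulin, stood at 179 ± 16.6 FPKM in WT and 191 ± 8.35 FPKM in CfzR.

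V-ATPase genes centred on a log2 fold change of 0.01 (median of 7). Of these, 3 were higher without overlap (42.9%, against 22.1% of all genes tested) and 0 lower (against 22.6%). ATP6V1A (chr3:113747019-113812056, plus strand), the catalytic subunit of the cytosolic part, had 11.4 and 11.7 FPKM in the WT pair against 16.6 and 15.7 FPKM in the CfzR pair. Both groups were narrow and well apart, and the mean was 1.40-fold higher in CfzR (log2 fold change 0.45, SE 0.19, 95% confidence interval 0.01 to 0.89, limma adjusted p = 0.440; 0.41 without CfzR replicate 1). The other subunits of that part did not all follow. ATP6V1B2, which pairs with ATP6V1A, had a log2 fold change of 0.22 without overlap (0.07 without CfzR replicate 1), and ATP6V1H, the regulatory subunit, one of -0.08 with overlap (0.21 without that library). The membrane subunits ATP6V0C and ATP6V0D1 had negative estimates (-0.11 and -0.25) and overlapped, and both rested on CfzR replicate 1 (0.07 and -0.01 without it). The accessory genes ATP6AP1 and ATP6AP2 had log2 fold changes of 0.01 and 0.09. ATP6AP2 was higher without overlap only narrowly, at 53.05 FPKM in CfzR replicate 1 against 52.86 FPKM in WT replicate 2. By level ATP6V0C, the ring subunit present in several copies, led at 312 FPKM over the 4 libraries, and ATP6V1A was lowest of the 7 at 13.8 FPKM. ATP6V1A made up 2.40% and 2.58% of the summed FPKM of the 5 pump subunits in WT and 4.29% and 3.19% in CfzR, without overlap.

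Neither transcription factor of lysosome genes passed the test. TFEB was read at 20.7 and 26.5 FPKM in WT replicates 1 and 2 and at 16.3 and 26.6 FPKM in CfzR replicates 1 and 2, so that the CfzR libraries held both its lowest and its highest value. Its log2 fold change was -0.16 and turned to 0.18 without CfzR replicate 1. TFE3 measured 20.1 and 19.1 FPKM in the WT libraries and 24.7 and 22.6 FPKM in the CfzR libraries, above WT without overlap (log2 fold change 0.26, SE 0.19, limma adjusted p = 0.611). Control of both factors is known to act largely on their location in the cell, which RNA levels do not measure.

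TFEB and TFE3 bind E-boxes, and promoters were searched for the letters CACGTG (E-box core) and TCACGTGA (core of the TFEB element, which contains the former). Both read the same on either strand. The windows run from 250 bases before to 50 bases after each RefSeq start (GRCh38.p14), and 42 of the 49 genes had at least 1. CACGTG was in 7 of their 55 windows (12.7%), against 9.54% of the 12914 windows of genes tested and 7.26% of all 35116. TCACGTGA was in 4 windows (7.27%), those of MCOLN1, LAMP1, ATP6V0D1 and ATG3, against 1.80% and 0.98%. The upstream stretches of the 3 lysosome genes among them are shown because they hold the element in genes whose estimates differ: log2 fold changes of -0.63 for MCOLN1, 0.03 for LAMP1 and -0.25 for ATP6V0D1, none past the threshold. Capitals mark the matches, and each stretch runs 5′ to 3′ on the gene's strand up to the base before the start: MCOLN1 on the plus strand at chr19:7522524-7522623, LAMP1 on the plus strand at chr13:113297039-113297238 and ATP6V0D1 on the minus strand at chr16:67481158-67481257.
MCOLN1: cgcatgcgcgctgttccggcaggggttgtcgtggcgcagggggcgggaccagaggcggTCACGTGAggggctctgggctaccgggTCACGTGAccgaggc
LAMP1: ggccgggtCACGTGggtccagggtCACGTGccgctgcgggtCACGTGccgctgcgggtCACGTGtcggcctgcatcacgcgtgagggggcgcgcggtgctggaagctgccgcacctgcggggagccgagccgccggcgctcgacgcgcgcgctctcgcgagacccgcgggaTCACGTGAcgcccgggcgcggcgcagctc
ATP6V0D1: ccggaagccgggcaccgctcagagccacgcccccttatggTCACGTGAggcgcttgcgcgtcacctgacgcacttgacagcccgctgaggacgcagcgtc

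The MCOLN1 matches begin 42 and 15 bases before the start, and that of ATP6V0D1 at 60 bases. LAMP1 holds 6 matches to CACGTG in its window, 2 of them within TCACGTGA, 1 of which spans the start and is not in the stretch shown. The 7 genes with CACGTG (the former 4 with ULK3, ATG14 and SNAP29) had a median of -0.19 on the log2 scale, where 3 of them lay lower in CfzR without overlap and 0 higher, beside 22.6% and 22.1% of all genes tested. Among the 35 genes without it the median was 0.01, with 7 higher and 7 lower. A match is a description of letters, and this difference was not tested.

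The 2 resistant libraries were more than 0.5 apart on the log2(FPKM + 1) scale for 8 of 49 genes (16.3%, against 28.4% of all genes tested). The WT libraries were that far apart for 0 of 49 (11.7% of all genes). These shares were not matched for level, and the set stood higher (median 28.5 FPKM against 10.4 FPKM). In 6 of the 8 genes with that gap in CfzR, replicate 1 was the lower: ATG4B, MCOLN1, TFEB, ATG10, ATP6V1H and ATG2A. AMBRA1 and STX17 were higher in CfzR replicate 1. Across all 12896 tested genes with a known transcript, the difference between the CfzR libraries went up with transcript length (Spearman 0.466) and down with GC share (-0.350), while the WT pair gave 0.146 and 0.0793. Over the 49 genes the same values were 0.336 and -0.415, as a description across genes that share their libraries. GC shares of the 6 genes named as lower were 60.9% (ATG4B), 62.0% (MCOLN1), 57.7% (TFEB), 43.2% (ATG10), 48.0% (ATP6V1H) and 64.0% (ATG2A). AMBRA1 and STX17, named as higher, had 55.5% and 43.1%. By longest transcript, the median over all genes tested was 2981 bases. Of the lower genes, MCOLN1 (2253 bases), ATP6V1H (2365 bases) and TFEB (2595 bases) lay below it. ATG10 (3033 bases), ATG4B (3294 bases) and ATG2A (6357 bases) lay above. Of the higher genes, STX17 (2713 bases) lay below and AMBRA1 (5351 bases) above. The part of length and GC in the gap of a single gene was not tested. After removal of the length and GC trend the log2 fold changes were 0.86 for STX17, 0.57 for ATG13, 0.51 for WIPI1, 0.29 for ATP6V1A, 0.33 for LAMP2 and -0.50 for MCOLN1, and 0 of 49 genes passed. For ATP6V1A and LAMP2 this correction shrank the estimate by more than 1.5 times, as it did for ATG101 (to -0.18).

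**Figure D4:**
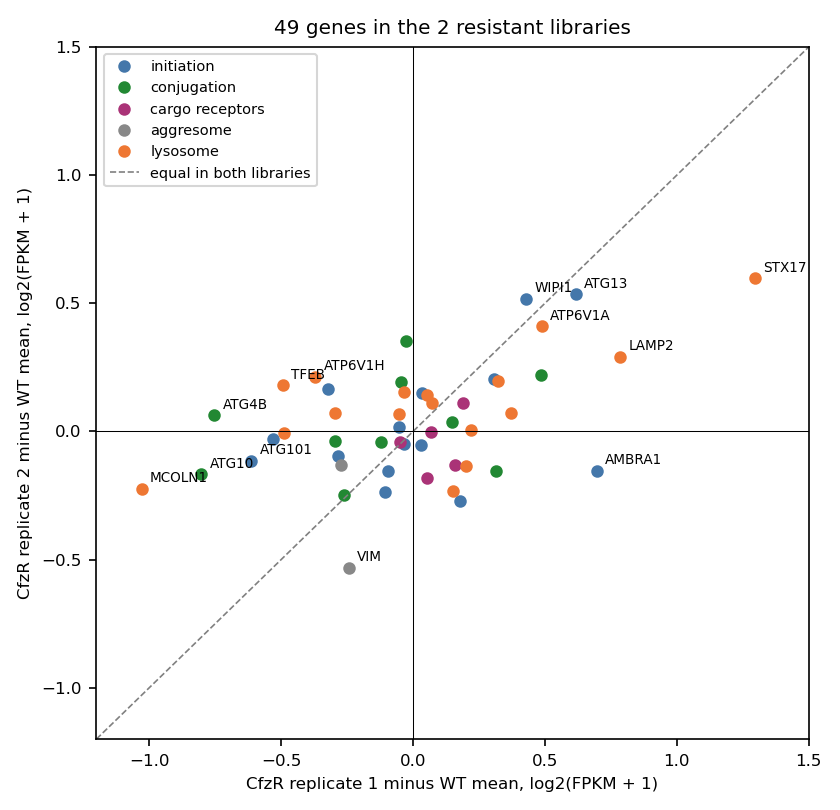
Difference of CfzR replicate 1 (horizontal) and CfzR replicate 2 (vertical) from the WT mean for the 49 genes, on the log2(FPKM + 1) scale, with colours for roles and a dashed line where both are equal. ATG13, WIPI1 and ATP6V1A lie near the line at 0.41 to 0.62, while ATG4B, MCOLN1 and AMBRA1 lie far from it and TFEB and AMBRA1 have opposite signs in the libraries.

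Several genes share exons with a neighbour, and the use of strand in counting is not given in the sources used here. In GENCODE release 29, 18 of the 49 have exons that overlap those of another gene in the table, 16 of them on the opposite strand. Of 20 such pairs tested, 11 had log2 fold changes of the same sign. The pairs named next were chosen after their values were seen. ATG10 overlaps RPS23, a ribosomal protein gene on the opposite strand, which had 3471 and 4293 FPKM in the WT pair against 2613 and 3555 FPKM in the CfzR pair. In both genes WT replicate 2 was the highest library and CfzR replicate 1 the lowest. MCOLN1 overlaps PNPLA6 on the same strand, at 165.5 and 238 FPKM in WT and 88.7 and 179 FPKM in CfzR, with the same highest and lowest libraries in both. ATG4B overlaps THAP4, at 53.1 and 63.35 FPKM in WT and 31.2 and 46.5 FPKM in CfzR, with CfzR replicate 1 lowest in both. A low CfzR replicate 1 was common. Of all 13411 genes tested, 2645 were lower there than in CfzR replicate 2 by more than 0.5 on the log2(FPKM + 1) scale. Another 1167 were higher there by more than that. How many genes share the full order of libraries was not counted. For ATG10, MCOLN1 and ATG4B the part of the neighbour's reads was not tested. ATG13 overlaps HARBI1, which had 2.88 and 3.20 FPKM in WT and 2.98 and 2.67 FPKM in CfzR (log2 fold change -0.08). The part of its reads in ATG13 was not tested either. WIPI1 overlaps ARSG, at 1.06 and 1.21 FPKM in WT and 1.68 and 1.57 FPKM in CfzR (log2 fold change 0.30).

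**Figure D5:**
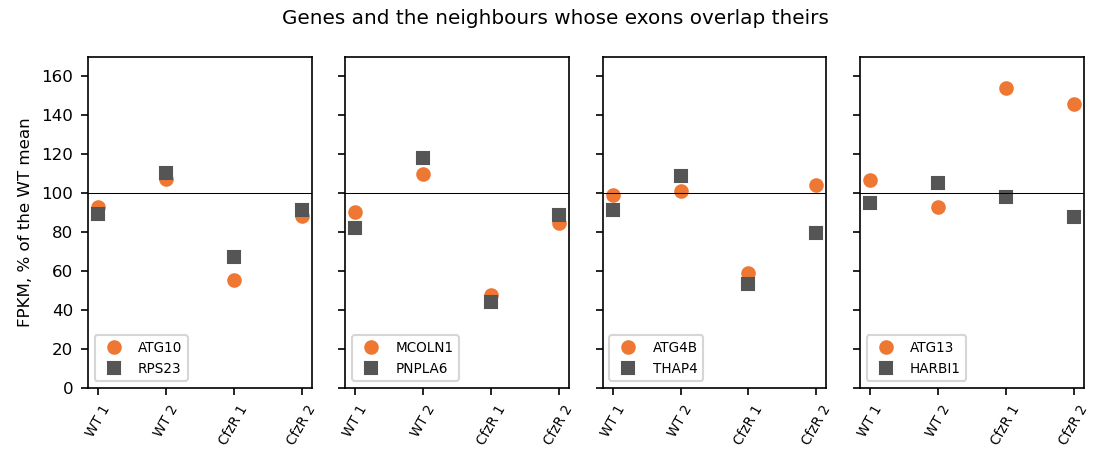
FPKM of 4 genes (circles) and of the neighbour whose exons overlap theirs (squares) in each library, each as a percentage of its own WT mean, which the line marks at 100%. ATG10 with RPS23 and MCOLN1 with PNPLA6 share their highest library (WT replicate 2) and their lowest (CfzR replicate 1). ATG4B and THAP4 part in CfzR replicate 2, and HARBI1 stays near its WT mean where ATG13 is higher. These pairs were chosen after their values were seen, and how many genes share such an order was not counted.

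Beyond these genes, 8 lists of the same pathway with 110 genes were read, of which 93 were measured and 92 tested. With limma 0 passed in either direction, while 2 higher and 2 lower genes had an unadjusted p under 0.05. Together they were 4.35% of the list, below the 11.1% of all genes tested. Their groups did not overlap for 21 genes higher and 21 lower in CfzR, 45.7% of those tested against 44.7% of all genes. The median log2 fold change was 0.03 for the 17 tested genes of the autophagy machinery and -0.13 for the 12 selective receptors. The tested V-ATPase subunits outside the set numbered 11 (median -0.02), lysosome fusion genes 8 (-0.17), lysosome membrane proteins 12 (0.01) and transcription factors 5 (-0.08). In these 6 lists 0 genes had an unadjusted p under 0.05.

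Aggresome handling held the 2 lower genes among 12 tested (median -0.13). STUB1 (CHIP), a ubiquitin ligase that works with chaperones, measured 177 and 244 FPKM in the WT libraries and 81.6 and 141 FPKM in the CfzR libraries. Its groups did not overlap, and CfzR replicate 1 was again the lowest (log2 fold change -0.95, SE 0.32, limma adjusted p = 0.349). Against the WT mean, CfzR replicate 2 alone was lower by a log2 difference of -0.55. BAG3, the co-chaperone that brings clients to the aggresome, had 19.9 and 18.8 FPKM in the WT pair against 12.8 and 12.4 FPKM in the CfzR pair. Here the libraries of each group were close together (log2 fold change -0.58, SE 0.18, adjusted p = 0.323).

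Among the 15 lysosomal hydrolases tested, 6 lay higher in CfzR without overlap (40.0%, against 22.1% of all genes tested) and 1 lower (6.67%, against 22.6%). Their median log2 fold change was 0.11, and nothing particular to the list was tested. GUSB, beta-glucuronidase, was read at 129 and 122 FPKM in WT replicates 1 and 2 and at 183 and 215 FPKM in CfzR replicates 1 and 2. Both CfzR libraries were clearly above (log2 fold change 0.66, SE 0.22, limma adjusted p = 0.344). GLB1, beta-galactosidase, measured 17.5 and 14.8 FPKM in the WT libraries and 23.4 and 21.7 FPKM in the CfzR libraries (log2 fold change 0.46, adjusted p = 0.449).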

How the data were processed

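The authors deposited 1 table of FPKM values, 1 column per library. The tools, per the submitters' processing notes, were STAR and Cufflinks, while which builds, gene models, versions and strand settings were used is not given in the sources here. Columns headed with the drug's abbreviation were taken as CfzR and the control columns as WT, the only other group. Symbols were found for 15027 of 15201 IDs.

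From these values log2(FPKM + 1) was computed, and a two-sided moderated test with mean-variance trend (limma 3.58.1 under R 4.3.3) was run over all 13411 genes whose mean reached 1 FPKM, with Benjamini-Hochberg adjustment over all of them. Since separate cultures are not stated, p-values reflect only library-to-library spread, possibly technical, and 2 libraries per group limit the precision. No exact permutation test is given, as 4 libraries cannot reach 0.05.

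Members and lists were chosen with earlier results of these data known. Named with values by library were genes with an unadjusted p under 0.05, the 3 largest absolute changes per role and a set of anchors. Transcript length, GC and overlaps came from GENCODE release 29, promoters from RefSeq (GRCh38.p14). The procedure was tested on simulated data (13151 genes, 50 changed at each size). Alternatives were no filter or one at 5 FPKM, a pseudocount of 0.1 or 5, TMM and quantile scaling, no trend, a replicate block, each library left out, and a length and GC correction with splines of 4 degrees of freedom.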

Additional observations from a re-analysis of the deposited data

How the results depend on the processing

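Over 13 alternatives for 21 named genes, 256 of 271 values kept their direction and side of the threshold. Changing the filter, the trend or the replicate block left each log2 fold change as it was, so no sign could turn there. None of the 21 genes passed in the main fit. The count of genes called (47) was 27 with a filter at 5 FPKM and 16 to 260 with a library left out, where a lone library is assumed to vary like the other group. The count of members called was 0 in all alternatives but 1. The 4 members at an unadjusted p under 0.05 became 2 without a mean-variance trend (ATG13 and STX17) and 1 to 11 with a library left out: STX17 alone where either WT library was dropped, ATG13 and WIPI1 where CfzR replicate 1 was, and 11 where CfzR replicate 2 was. The share of all genes at that p moved too, from 11.1% to 8.93% and 5.68% without WT replicates 1 and 2, 10.9% with CfzR replicate 1 left out and 28.99% with CfzR replicate 2 left out. The 21 members without overlap became 29 to 39, as fewer libraries overlap less often. With the filter at 5 FPKM, 4 members had an unadjusted limma p under 0.05, with LAMP2 in place of STX17, which was not tested. The length and GC correction also gave 4, with ATG3, lower in CfzR in the main fit, in place of ATP6V1A. Quantile normalization added LAMP2. With the length and GC correction the medians of the log2 fold change were -0.097 for initiation, -0.17 for conjugation and -0.090 for cargo receptors. Under quantile normalization the medians were 0.22 for lysosome and 0.079 for all members. With a library left out they ran from -0.048 to -0.0035 for initiation, -0.12 to -0.00094 for conjugation, -0.059 to 0.11 for cargo receptors, 0.0085 to 0.11 for lysosome and -0.029 to 0.0057 for all members.

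Signs turned for 7 of the 21 named genes. Over all 49 members, 11 changed sign without CfzR replicate 1. With a library left out, log2 fold changes ran from -0.75 to 0.062 for ATG4B and from -0.13 to 0.20 for LAMP1 (positive and negative without CfzR replicate 1), from -0.49 to 0.18 for TFEB (positive without that library and, at 0.014, without WT replicate 2), from -0.18 to 0.052 for CALCOCO2 (positive without CfzR replicate 2), from -0.028 to 0.35 for GABARAP (negative without CfzR replicate 2 and, at -0.010, without WT replicate 2) and from -0.075 to 0.22 for GABARAPL2 (negative without WT replicate 1 and, at -0.045, without CfzR replicate 2). Quantile normalization gave 0.042 for CALCOCO2 and 0.047 for OPTN, and the length and GC correction -0.00090 for GABARAPL2 and -0.0037 for LAMP1. The cause was not tested.

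The labels do not tie replicate numbers across groups. The gaps between replicates 1 and 2 in WT and in CfzR correlated at 0.252 across 13411 genes. With 2 pairs and no shared batch stated, the number was not taken as a pairing. With a replicate block 1242 genes were called, 7 members had an unadjusted p under 0.05 (as did 20.6% of all genes) and 2 members passed, STX17 (adjusted p = 0.0112) and MCOLN1 (adjusted p = 0.0367). The block leaves each gene 1 residual degree of freedom. A count of groups without overlap has no blocked value. Depth is unknown, so no counting error can be given.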

Other observations

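Some values belong to genes that overlap members of the set, and were picked after they were seen. An unnamed gene that shares exons with GABARAP on the same strand (ENSG00000262526) measured 158 and 187 FPKM in the WT libraries and 100.4 and 107.9 FPKM in CfzR (log2 fold change -0.72), while GABARAP itself had a log2 fold change of 0.16. VGLL4, whose exons overlap those of ATG7 on the opposite strand, measured 7.97 and 6.81 FPKM in the WT libraries and 20.9 and 12.6 FPKM in CfzR (log2 fold change 1.04), against -0.17 for ATG7. AP3S1, opposite ATG12, measured 114 and 100.3 FPKM in the WT libraries and 160 and 148 FPKM in CfzR (log2 fold change 0.52), against 0.08 for ATG12. The transcript opposite SNAP29, ENSG00000272600, stood at 0.0372 FPKM in CfzR replicate 1 and at 4.08 to 7.25 FPKM in the other 3 libraries.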
